A study of Mus musculus with 8 samples.

Results

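The change in Ago enrichment between epiblast-like aggregates (ELA) and neural progenitor cells (NPC) was measured on 4 of the 8 arrays of the series, chosen by stage and RNA type alone. Mouse ES cells of the E14Tg2A line (strain 129/Ola) were collected as ELA at 2 days in vitro, after floating culture in minimal medium with N2 and B27 supplements, and as NPC at 6 days in vitro, after further culture attached to poly-ornithine and laminin. For either stage 1 array carries Ago–RNA, the RNA precipitated out of the cytosol with the anti-pan Ago antibody clone 2A8, and 1 carries total RNA. RNA from 3 independent experiments was pooled for each array, so no condition has a replicate, no p-value can be given, and the spread between cultures is unknown. The other 4 arrays hold the same 2 RNA types of undifferentiated ES cells (0 days in vitro) and of neural precursors (NPC/Neu, 10 days in vitro).

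Argonaute proteins carry miRNAs, which guide them to mRNAs mostly through pairing of the miRNA seed with sites in the 3′ UTR. A bound mRNA is generally translated less and degraded faster. The study used the ratio of Ago–RNA to total RNA as an estimate of this repression. The ratio is not the share of an mRNA held by Ago, and no array of the series carries RNA from a control precipitation. Early mouse embryonic cells rely on the miR-290 and miR-302 clusters, whereas neural cells express let-7, miR-9, miR-124 and miR-125.

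The mature sequences of these families are shown because the results below are set against their sites. Capitals mark the seed, bases 2 to 8, and the sequences are from RefSeq (GRCm38.p6).
let-7b-5p: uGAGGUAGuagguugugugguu
miR-9-5p: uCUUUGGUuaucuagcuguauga
miR-125b-5p: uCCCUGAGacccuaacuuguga
miR-302b-3p: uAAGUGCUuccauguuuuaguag
miR-294-3p: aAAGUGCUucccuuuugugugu
miR-17-5p: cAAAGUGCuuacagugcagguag
miR-92a-3p: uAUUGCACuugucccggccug
The miRNAs miR-302b and miR-294 share the whole seed, and that of miR-17 is shifted from it by a single base.

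Ago enrichment (E) was the log2 signal of a probe on the Ago–RNA array minus that on the total RNA array of the same stage. Its change (ΔE) was E in NPC minus E in ELA, which equals the Ago–RNA change minus the total RNA change, so that a positive ΔE means a gain of Ago enrichment beyond the change of the transcript. A probe counted as measured if the scanner software called it well above background on all 4 arrays, which 25591 of 55681 probes (46.0%) were. They stood for 19215 gene names, and a gene's value was the mean of its measured probes. The noise of ΔE was taken from 399 probes printed in 10 or more spots, whose single-spot SD was 0.33. It was 0.36 for those with a log2 signal under 8 and 0.31 for those at 11 or more. Different measured probes of the same gene had an SD of 0.29. These are technical errors only. A change of 2-fold or more (ΔE of 1 or more in size) was used as the call.

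The labels were checked on the total RNA arrays. Of 25 epiblast and pluripotency genes, 21 fell by 2-fold or more from ELA to NPC and 1, Fgf15, rose, and the summed linear signal went from 662416 to 120793. Oct4 (Pou5f1) fell by 6.78 on the log2 scale and Fgf5, a marker of the primed epiblast, by 7.30. Of 28 neural progenitor genes, 18 rose and 0 fell, and the summed signal went from 117099 to 510428. Markers of other cells were set beside the 10.0% of all measured genes that rose and the 9.14% that fell. Of 24 early neuron genes 14 rose and 2 fell, of 11 neural crest genes 6 rose and 2 fell, of 19 mesoderm and endoderm genes 7 rose and 1 fell, and of 10 glial genes 2 rose and 0 fell, with a median change of −0.05. The summed signal of the mesoderm and endoderm list was 32651 in ELA and 39271 in NPC, and 14 of its 19 genes were well above background in NPC. In such bulk samples, fewer cells of a type and less RNA per cell cannot be told apart, and the part of the cell mixture in the ΔE values below was not tested.

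Most mRNAs moved on Ago as they moved in the cell. Across the measured probes the Ago–RNA change followed the total RNA change with a slope of 0.88 and a Pearson r of 0.87 (Spearman rho 0.74). This is a description across probes, which are not independent and share the 4 arrays. The median ΔE was 0.03 with quartiles of −0.29 and 0.32, and 94.5% of probes lay within 2-fold. Ago enrichment was gained by 460 probes (1.8% of those measured) and lost by 960 (3.75%). By gene, 328 names gained (1.71%) and 641 lost (3.34%), while total RNA rose 2-fold or more for 1930 genes (10.0%) and fell for 1756 (9.14%). Losses were also larger than gains. A ΔE of −2 or below was seen for 53 probes, and one of 2 or above for 7. A positive ΔE was found for 10308 of the 19215 genes (53.6%), the share to set beside the counts of positive members below.

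**Figure D1:**
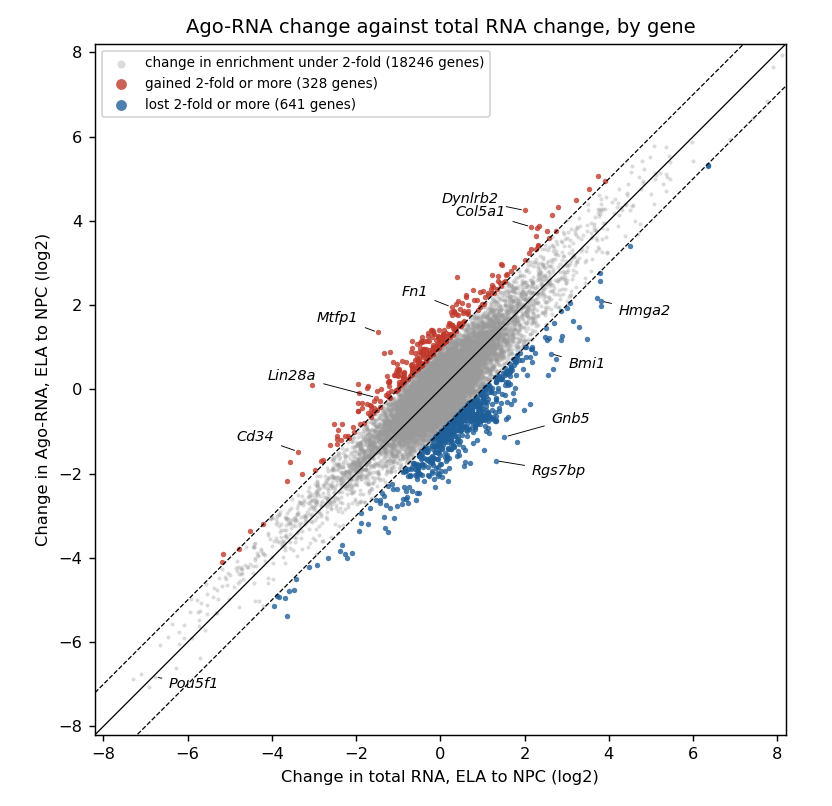
Each point is a measured gene, with the change of its total RNA on the x axis and of its Ago–RNA on the y axis, both log2 from ELA to NPC. The solid line marks equal change and the dashed lines a 2-fold difference. The 328 genes above the upper dashed line gained Ago enrichment and the 641 below the lower one lost it. The gene 4930520P13Rik lies outside the plot.

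Both RNA types contributed to the losses. Among the 960 probes that lost enrichment, Ago–RNA fell by 0.5 or more on the log2 scale for 69.0% and changed by less than that for 23.8%. Total RNA of the same probes rose by 0.5 or more for 51.2%, changed by less than 0.5 for 35.2% and fell for 13.5%, against 21.0%, 56.9% and 22.0% of all measured probes. Where total RNA rose 2-fold to 4-fold, 10.3% of 1923 probes lost enrichment, against 3.07% of 20695 probes whose total RNA changed by less than 2-fold. Gains showed the reverse order. Of the 460 probes that gained, total RNA fell by 0.5 or more for 44.1% and rose for 19.1%, and Ago–RNA rose for 63.9%. Because ΔE contains the total RNA change with a negative sign, noise on the total RNA arrays alone would also give this direction, and its part was not tested.

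The arrays of ES cells and of NPC/Neu entered ΔE only through the quantile normalization, which was common to all 8 arrays. They were examined for the same probes where all 8 arrays were well above background. Of 927 such probes that lost enrichment, 823 (88.8%) were lower in NPC/Neu than in ES cells, with a median difference of −0.91. Their median enrichment went from 0.65 in ELA to −0.69 in NPC. Of 433 that gained, 358 (82.7%) were higher, with a median difference of 0.67. Over all 24406 measured probes of this kind 51.4% were higher and the median difference was 0.02. Median enrichment of the gaining probes was 0.18 in ELA. It was 0.63 in ES cells, 1.38 in NPC and 1.40 in NPC/Neu. The calls favor a low E in ELA for gains and a high one for losses. The ELA and NPC medians of the called probes are thus partly set by the choice of probes. The ELA arrays had the narrowest range of enrichment, with quartiles over all these probes of −0.30 and 0.29, against −0.54 and 0.62 in ES cells, −0.37 and 0.42 in NPC and −0.51 and 0.60 in NPC/Neu. The spread of E thus differed between the ELA and NPC arrays, and its part in ΔE was not tested.

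**Figure D2:**
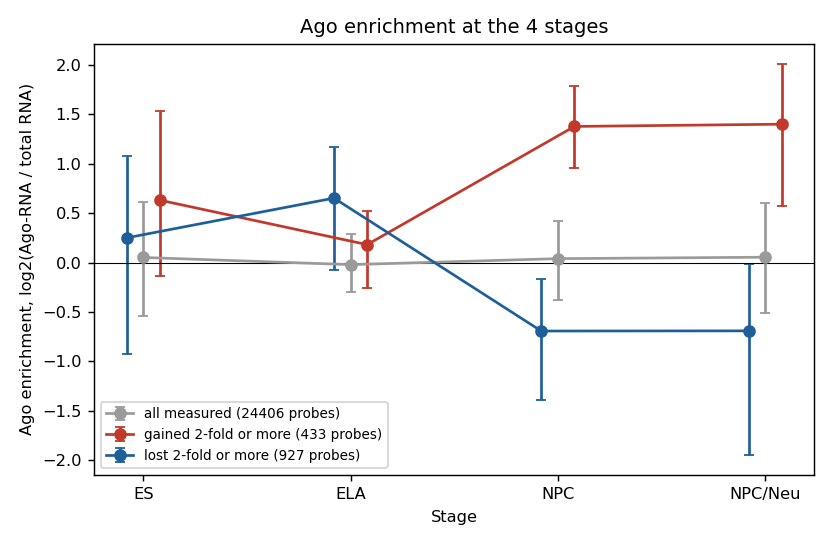
Median Ago enrichment, log2(Ago–RNA/total RNA), at the 4 stages for all measured probes and for those called as gained or lost between ELA and NPC. Bars show the quartiles over probes. Probes that lost enrichment had medians of −0.69 in both NPC and NPC/Neu, and probes that gained had medians of 1.38 and 1.40.

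Among genes with a reference symbol, and apart from 4930520P13Rik, whose loss rests on a single array, the largest loss was that of Rgs7bp (chr13:105737233-105845010 on mm9, probe in the 3′ UTR), which anchors R7 regulators of G protein signaling at the membrane. Its log2 signal on the Ago–RNA arrays was 13.74 in ELA and 12.05 in NPC, while total RNA was 13.34 and 14.65. Ago–RNA was thus above total RNA in ELA and far below it in NPC, an 8.03-fold loss of enrichment. Its enrichment was −2.63 in ES cells and −4.31 in NPC/Neu, so the ELA value was the highest of any stage. The gene was picked on that value, which rests on 1 array of each RNA type. Next came Gnb5 (chr9:75159202-75193678), the G protein β subunit that pairs with the same R7 regulators. Ago–RNA of Gnb5 was 10.95 and 9.81 and total RNA 8.23 and 9.75 in ELA and NPC, giving an enrichment of 2.72 that fell to 0.06. In ES cells it was 0.58.

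Several other top losses shared this form, with Ago–RNA well above total RNA in ELA and close to it in NPC. Prdx3 (chr19:60939954-60950459), a mitochondrial peroxidase, had Ago–RNA signals of 14.48 and 12.31 at total RNA levels of 12.31 and 12.48. For Cenpq (chr17:41060000-41071996), a centromere protein measured by 2 probes, Ago–RNA was 13.16 and 11.43 and total RNA 10.85 and 11.43, and the probes gave ΔE values of −2.60 and −2.02. Hddc3, a phosphohydrolase, differed in that its Ago–RNA hardly moved (11.38 and 11.71) while its total RNA rose from 9.08 to 11.64. For Slc35f1, a solute carrier, total RNA rose from 8.53 to 12.02 and passed Ago–RNA, which was at 10.01 and 11.21. The losses of 9530068E07Rik, 6330407I18Rik and 2010321M09Rik, for which no role is given here, lay between −2.48 and −2.43. In the same direction, Ccdc41, a centriole protein, reached −2.21.

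Other losses came at nearly constant total RNA. Mrps22, a protein of the small mitochondrial ribosomal subunit, kept its total RNA at 13.27 and 13.48 while Ago–RNA went from 14.57 to 12.70. For Slfn9, a Schlafen family member with 2 probes in the 3′ UTR, total RNA was 10.39 and 10.50 and Ago–RNA 10.84 and 8.90. The probe for Hsd3b2, which was placed in no coding transcript, reached −2.13 at constant total RNA. Prdx3 and Ccdc41 also met this condition, with total RNA changes of 0.17 and −0.12.

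The largest gain was that of Mtfp1 (chr11:3991483-3995448), which promotes mitochondrial fission. Its Ago–RNA rose from 12.83 to 14.18 while total RNA fell from 13.46 to 11.98, so E went from −0.63 to 2.20, a ΔE of 2.83. It had been −0.73 in ES cells and remained at 1.52 in NPC/Neu. Tnfsf9 (chr17:57244808-57247180), the ligand of the costimulatory receptor 4-1BB, showed the highest enrichment of the top genes in NPC, with Ago–RNA signals of 11.89 and 14.56 at nearly constant total RNA of 10.36 and 10.75. Dynlrb2, a dynein light chain, rose on both, from 7.83 to 12.08 on Ago–RNA and from 7.34 to 9.35 in total RNA. In Mdfi, an inhibitor of myogenic bHLH factors, Ago–RNA rose from 12.94 to 13.80 as total RNA fell from 13.39 to 12.04.

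In several of the other top gains the total RNA was lost faster than the Ago–RNA. The signal of Cd34, a sialomucin, was 10.64 and 9.17 on Ago–RNA but 10.89 and 7.51 in total RNA, and that of Slc22a7, an organic anion transporter, was 10.72 and 8.99 against 11.16 and 7.60. For Smarcd2, a SWI/SNF subunit, Ago–RNA stayed at 12.17 and 12.25 while total RNA fell from 11.90 to 10.18. Pigt, a subunit of the GPI transamidase, had Ago–RNA at 11.24 and 11.14 and total RNA at 13.54 and 11.62, and its E was still −0.48 in NPC. Lyst and Klra22 were dim, with all 4 signals between 6.99 and 8.61. With total RNA changed by less than 0.5, the leading gains beside Tnfsf9 were Fn1, encoding fibronectin, and Fat1, encoding a giant cadherin. Fn1 (chr1:71632094-71699774) went from 14.83 to 16.78 on Ago–RNA at 14.52 and 14.79 in total RNA, and Fat1 from 14.89 to 16.99 at 14.15 and 14.58. The remaining ones, Twist2, Hspa2 and Tas2r113, had ΔE values of 1.61, 1.59 and 1.58.

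**Figure D3:**
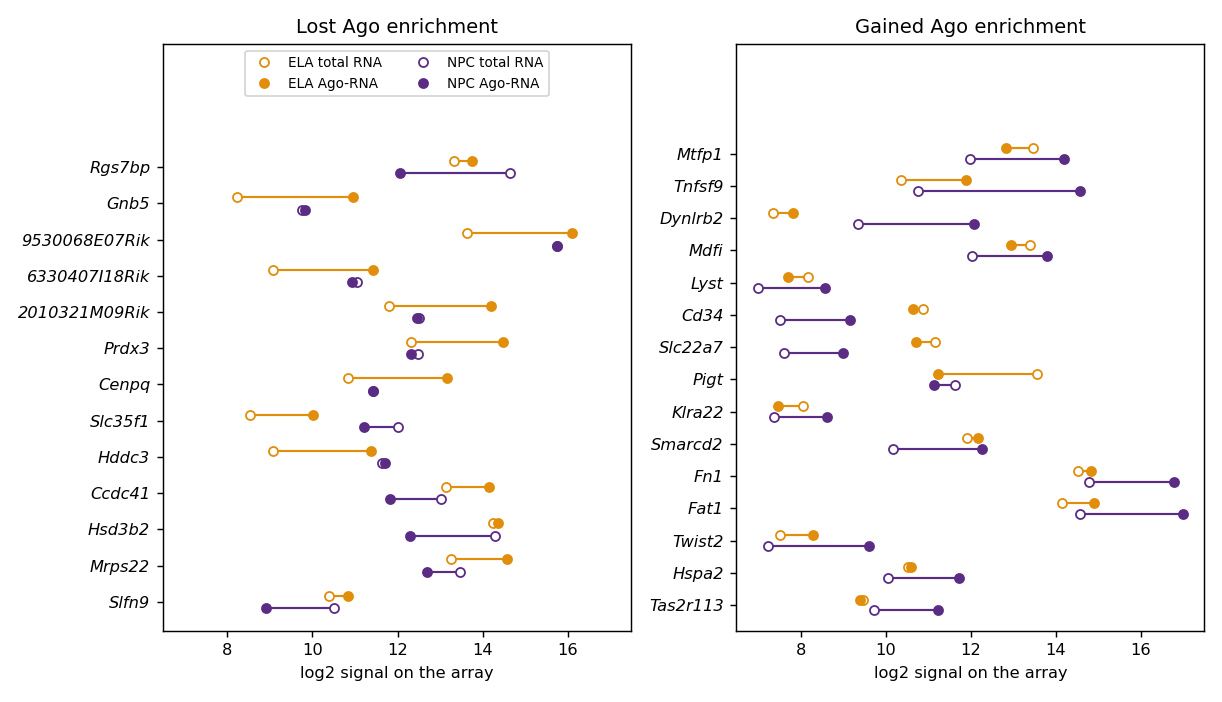
Log2 signals of the genes with the largest losses (left) and gains (right) of Ago enrichment on the 4 arrays, with open circles for total RNA and filled circles for Ago–RNA, in orange for ELA and purple for NPC. The length of each line is the size of E. In most genes on the left the filled orange circle lies to the right of its open one, and in all genes on the right except Pigt the filled purple circle does.

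Released and loaded transcripts were also called by the thresholds of the study's methods, which ask for an Ago–RNA signal above a fitted limit, E of at least 2 at the bound stage and at most 0.5 at the other, and a ΔE of at least 1.5 in size. Released were 48 of 55226 probes (0.0869%) and loaded 16 (0.029%), standing for 47 and 16 genes. These counts rest on the background step, since the processed signal gave 587 released genes and 585 loaded genes with quantile normalization and 300 and 455 with 75th percentile scaling, so that released no longer clearly outnumbered loaded. Only 20 of the 48 released probes were measured on all 4 arrays, and 20 of the others were well above background on the ELA Ago–RNA array alone. Of the 16 loaded probes 6 were measured and 9 were well above background on the NPC Ago–RNA array alone. Cdh8, a cadherin with the largest released value, shows the difference. Its released probe had signals of 9.93 on ELA Ago–RNA and between 6.50 and 6.75 on the other 3 arrays, whereas another, measured probe of the gene gave a ΔE of 0.56. Cyp2c38 was split in the same way, with a released probe at −3.07 and a measured one at 0.49. Olfr1408, Emx2os and Olfr624 had no measured probe, nor had the loaded Neurog2, Ptprh and BC051076. Neurog2, a proneural factor, was at 6.94 and 11.83 on Ago–RNA and at 6.59 and 9.78 in total RNA in ELA and NPC.

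The measured released genes with a role that can be given were, beside Gnb5, Cenpq, Prdx3 and Hddc3, the GTPase-activating protein Arhgap5, the deacetylase Sirt7, the lysosomal membrane protein Lamp2, the decapping factor Dcp1b, the RNA-binding Ro protein Trove2, the chromatin protein Msl3 and the endoplasmic reticulum lectin Os9. Their ΔE lay between −2.65 and −1.77. The measured loaded genes with a reference symbol were Mtfp1, Dynlrb2, Smarcd2 and Col5a1.

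Probes with Ago–RNA not well above background at a single stage were examined apart. Their undetected signal was raised to the lowest signal called well above background on that array, 6.88 for ELA and 7.02 for NPC. A signal already above this limit kept its own value, so the folds below are estimates and not strict bounds. In 718 probes Ago–RNA was well above background in ELA but not in NPC, with total RNA well above it at both stages. Of these, 31 had an estimated loss of 2-fold or more, beside losses in 3.75% of all measured probes. The dynein adaptor gene Bicd1 had an estimated loss of 4.12-fold, at an undetected NPC Ago–RNA signal of 7.24. In 683 probes the reverse held, and 46 had an estimated gain of 2-fold or more, beside gains in 1.8% of all measured probes. The estimated gain was 3.96-fold for Zfp503 and 3.70-fold for Pou3f3, transcription factors of the developing nervous system. Bicd1 and Zfp503 kept their own signals, so their values equal ΔE. These 3 genes were chosen after their values were seen.

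Extracellular matrix genes had the highest median ΔE of the 37 lists. Of 57 collagen, laminin, fibronectin and related genes 30 were measured, 29 of them had a positive ΔE, 12 gained 2-fold or more and 0 lost, against 1.71% and 3.34% of all measured genes. Their median ΔE was 0.90, against 0.04 over all genes, and 0.54 without the filter on dim probes. Their total RNA did not move as a group, with a median change of 0.14, and 13 rose and 7 fell by 2-fold or more. Col5a1, a fibrillar collagen, had the highest ΔE (1.70), with Ago–RNA signals of 10.32 and 14.18 and total RNA of 9.92 and 12.08. Lama1, a chain of embryonic laminin, went from 12.76 to 15.75 on Ago–RNA and from 12.59 to 14.03 in total RNA, and Col4a2, of basement membrane collagen, from 10.09 to 14.24 and from 9.85 to 12.51. Lama3 was the only measured member with a negative value (−0.30). The median E of the list was 0.12 in ELA and 1.02 in NPC, beside 1.11 in ES cells and 1.84 in NPC/Neu. A low E in ELA was not particular to this list. From ES cells to NPC/Neu, medians were 1.24, 0.30, 0.51 and 0.97 for SWI/SNF and CHD remodelers. For histone demethylases they were 1.28, 0.32, 0.57 and 1.16. Targets of miR-290 and miR-302 went the other way, with their highest median in ELA (0.98). The part of the narrow range of E in ELA was not tested. The mesoderm and endoderm list, of which 10 genes were measured, shares Lama1, Lamb1 and Col4a1 with the extracellular matrix list. Its median ΔE was 0.65, with the endoderm factor Foxa2 at 1.15.

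Targets of the early embryonic miRNAs had a median ΔE below 0. Of 21 known targets of miR-290 and miR-302, 20 were measured, 15 of them had a negative ΔE, and 3 lost 2-fold or more and 0 gained, against 3.34% and 1.71% of all measured genes. Their median ΔE was −0.32, and −0.56 with the processed signal and 75th percentile scaling. Their median E went from 0.98 in ELA to 0.33 in NPC and 0.27 in NPC/Neu, and their median total RNA change was 0.69. Median E of these genes in ES cells was 0.34. Cdkn1a (p21), an inhibitor of cyclin-dependent kinases, lost most. Its Ago–RNA was 12.56 and 12.08 and its total RNA 10.08 and 11.16, and its 2 probes gave −1.70 and −1.42. The apoptotic protease gene Casp2 had Ago–RNA signals of 15.17 and 14.66 at total RNA of 13.94 and 14.87, and the apoptosis-related Ei24 had 12.39 and 11.84 at 11.37 and 11.92. The highest value of the list was that of the antiproliferative Btg2, at 0.83, with E of 1.93 and 2.76.

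The first miR-302 and miR-294 site (the letters AGCACTT, in capitals) in the 3′ UTR of these 3 genes and of the top losses Prdx3 and Cenpq is shown, with 11 bases on either side, from the GENCODE vM1 transcripts on mm9.
Cdkn1a, chr17:29236762-29236790, plus strand: cagacctgaatAGCACTTtggaaaaatga
Casp2, chr6:42231546-42231574, plus strand: tataacctagaAGCACTTgtctctgctct
Ei24, chr9:36587463-36587491, minus strand: gctgtttttttAGCACTTgccagctcctg
Prdx3, chr19:60940178-60940206, minus strand: cacatagcaccAGCACTTaatggaagctt
Cenpq, chr17:41060298-41060326, minus strand: taggctggctcAGCACTTattctttctcc
The same letters occur in genes that gained enrichment, among them Cd34, Col4a2 and Ep400. A match of these letters is a description and not evidence of binding.

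Known let-7 targets did not move together. Of 28 measured genes 18 had a positive ΔE, against 53.6% of all measured genes, and the median was 0.22. Of these 28, 2 gained and 3 lost 2-fold or more, against 1.71% and 3.34% of all measured genes. Members past 2-fold stood against each other. Lin28b, which blocks let-7 maturation, lost enrichment, with Ago–RNA at 13.59 and 12.71 and total RNA at 12.08 and 12.83 (ΔE of −1.63, and −1.81 and −1.46 by probe). Its paralog Lin28a gained, with Ago–RNA at 16.75 and 16.55 and an enrichment of 0.75 and 2.07 (ΔE of 1.33). Hmga2, a chromatin protein of stem and progenitor cells, lost 1.70 on the log2 scale, since its total RNA rose from 9.61 to 13.41 and its Ago–RNA only from 10.96 to 13.06. The letters CTACCTC, the let-7 site, occur 4 times in the annotated 3′ UTRs of Hmga2 and of Lin28b and 2 times in that of Lin28a. Among the other members, Zfp322a had a ΔE of −0.77, Igf2bp1 one of 0.94 and Dicer1 one of 1.14. Known miR-124 and miR-9 targets had a median of 0.29 over 25 genes, with only Hes1 past 2-fold.

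The genes of the silencing machinery were themselves measured. Of 26 Argonaute and effector genes, all measured, 19 had a positive ΔE, 2 gained 2-fold or more and 0 lost, with a median of 0.20. Of all measured genes 53.6% had a positive ΔE, 1.71% gained and 3.34% lost. Eif2c1, Eif2c2, Eif2c3 and Eif2c4, which encode Argonautes 1 to 4, had values of 0.28, 0.04, −0.31 and 0.03. The Tnrc6 scaffolds that link Argonaute to deadenylation had 0.65 (Tnrc6a), 0.27 (Tnrc6b) and 0.60 (Tnrc6c). The gains past 2-fold were those of Mov10, an Ago-associated helicase, with Ago–RNA at 13.35 and 14.01 and total RNA at 12.48 and 11.34, and of Edc4, a decapping scaffold, at 1.06. Lsm1, of the decapping activator ring, was lowest at −0.86. Of 15 measured miRNA biogenesis genes 13 had a positive ΔE, 2 gained and 1 lost 2-fold or more, and the median was 0.40. The calls were those of Lin28a, Lin28b and Dicer1. Dicer1, which cuts miRNA precursors, gained 1.14, its Ago–RNA rising from 13.28 to 15.06 and its total RNA from 12.51 to 13.16.

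The stage genes themselves changed far more in amount than in enrichment. The 24 measured epiblast and pluripotency genes had a median total RNA change of −3.19 and a median ΔE of 0.43. A positive ΔE was found for 17 of them, against 53.6% of all measured genes. The median ΔE was only 0.079 with quantile normalization run separately on each RNA type. Pou5f1, which lost 6.78 in total RNA, had a ΔE of −0.04, and Utf1 and Nanog had −0.14 and 0.05. Apart from Lin28b and Lin28a, the demethylase gene Tet1 lost 1.06 and the zinc finger factor Zic2 gained 1.07. Among the 26 measured neural progenitor genes the median total RNA change was 2.52 and the median ΔE 0.22. Fabp7, Meis1, Meis2 and Pax6 had values between −0.44 and −0.07, and Nes and Sox1 0.49 and 0.34. Msi2, an RNA-binding protein of stem cells, lost 1.47, with Ago–RNA at 15.66 and 15.05 and total RNA at 14.44 and 15.30. Hes1, the Notch-responsive repressor and a known miR-9 target, gained 1.62, with Ago–RNA at 10.10 and 12.34 and total RNA at 8.89 and 9.50. Of the 20 measured Notch pathway genes 17 had a positive ΔE, beside 53.6% of all measured genes, with a median of 0.45. Only Hes1 gained 2-fold or more and 0 genes lost, beside 1.71% and 3.34% of all measured genes. Notch1 was lowest at −0.93. A further Notch1 probe, not well above background on the ELA Ago–RNA array, had an estimated gain of 2.71-fold. That estimate rests on an ELA Ago–RNA signal of 7.26 that was not told from background, so the direction of Notch1 was not settled.

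Among chromatin genes, SWI/SNF and CHD remodelers had 5 gains and 0 losses of 39 measured, against 1.71% and 3.34% of all measured genes, with a median of 0.24. Beside Smarcd2 these included Ep400 (1.47), Chd4 (1.23) and Chd8 (1.02), each with total RNA changed by less than 0.2. Of 24 measured Polycomb genes 1 lost and 0 gained, and the median was 0.10. The loss was that of Bmi1, a subunit of Polycomb complex 1. Its total RNA rose from 9.68 to 12.30 and its Ago–RNA only from 10.46 to 11.31, and its 2 probes gave −1.84 and −1.69. Histone demethylases had a median of 0.38 with 14 of 16 positive, and DNA replication and repair genes 0.34 with 30 of 36 positive, beside 53.6% of all measured genes. Neither list had a gain or a loss past 2-fold. In the DNA methylation list Uhrf1 gained 1.02 and Tet1 lost.

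Some housekeeping lists lay slightly below the bulk, and others did not. Cytosolic ribosomal protein genes had a median ΔE of −0.10 over 78 genes, with 0 changes past 2-fold. Medians of oxidative phosphorylation genes, mitochondrial ribosomal proteins and proteasome subunits were −0.12, −0.12 and −0.10. Over the scalings the mitochondrial ribosomal median came as high as −0.0045 and the proteasome median as high as −0.02. Medians of translation initiation factors (0.00), splicing factors (0.03), cholesterol genes (0.03) and replication-dependent histones (0.09) lay near or above the 0.04 of all genes. The mitochondrial ribosomal list held 4 losses among 74 genes, close to the 3.34% of all measured genes, namely those of Mrps22, Mrpl14 (−1.78), Mrpl32 (−1.59) and Mrps18b (−1.26). In the oxidative phosphorylation list of 82 measured genes Cox5a and Ndufa4 gained 1.55 and 1.19, and Ndufb9 reached a loss of 2-fold, beside 1.71% gains and 3.34% losses over all genes. Zfp zinc finger genes, of which 321 were measured, had 26 losses and 3 gains, beside 3.34% and 1.71% of all genes, at a median of −0.06. Zfp820 and Zfp946 fell most, by 1.99 and 1.94. Zinc finger genes can share sequence, so signals of similar members on a probe cannot be told apart. Nuclear and structural RNAs had the lowest median of all lists, −0.53 over 15 genes. Of these 15, 12 had a negative and 3 a positive ΔE, from −0.95 for TUG1 to 0.95 for NEAT1. Their median E was already low, at −0.96 in ELA and −1.55 in NPC. Malat1, retained in the nucleus and named here outside the naming rule, had −2.47 and −2.95.

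**Figure D4:**
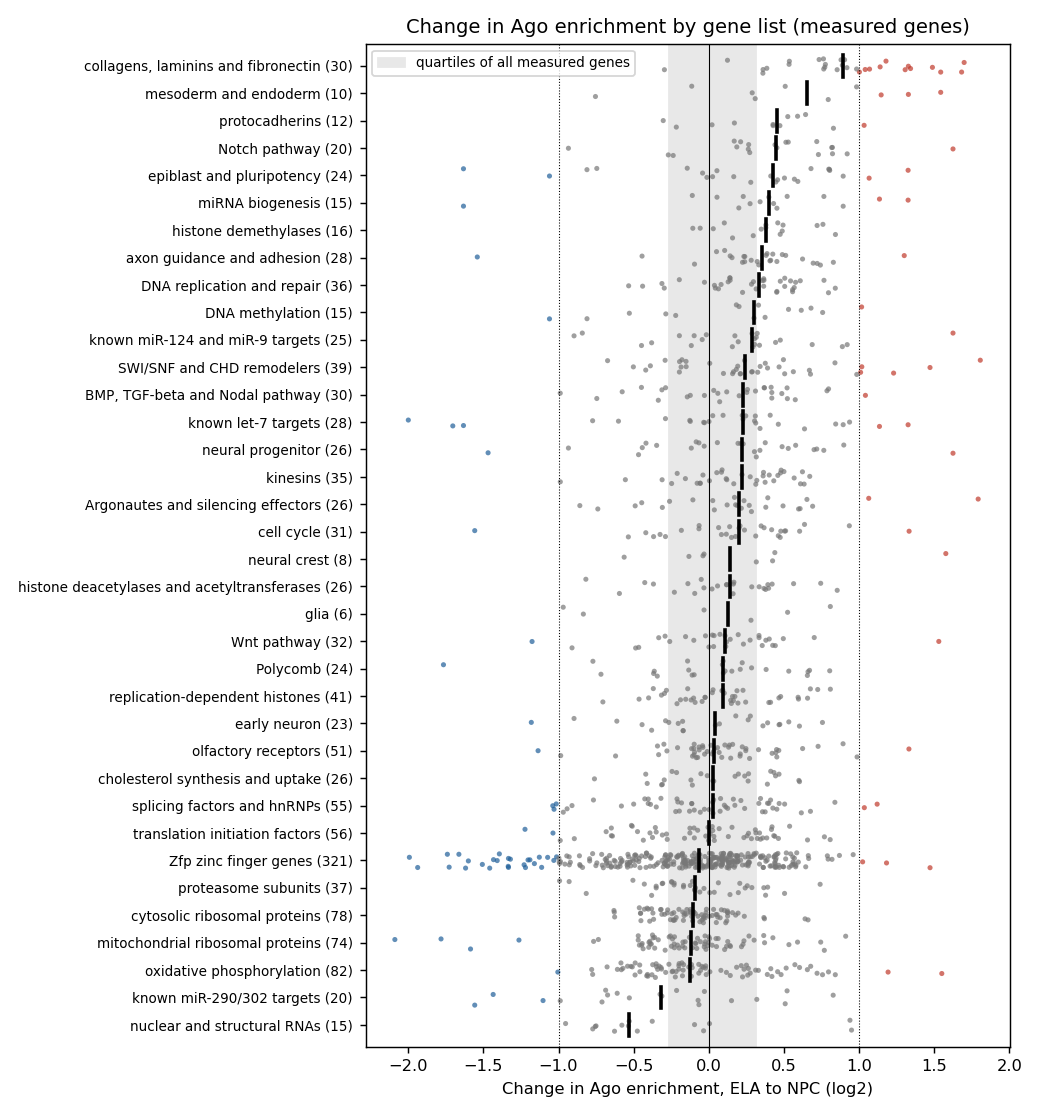
Change in Ago enrichment of every measured gene of the lists with 5 or more measured genes (number in parentheses), on a log2 scale. Thick bars mark medians, red and blue points changes of 2-fold or more, and the grey band the quartiles of all measured genes. The extracellular matrix list has a median of 0.90 and the list of miR-290 and miR-302 targets one of −0.32.

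Of 8 sequence and signal features that were set against ΔE after the values had been seen, the GC content of the 3′ UTR had the strongest relation. Over 12708 measured genes with an annotated 3′ UTR the Spearman rho was 0.27, beside −0.26 for the total RNA change over 25591 probes, a description across genes, which are not independent. In the quintile of genes with the lowest GC content (up to 38.1%) the median ΔE was −0.12, and 7.55% lost and 1.34% gained 2-fold or more. In the highest quintile (from 52.1%) it was 0.22, with 0.669% lost and 2.79% gained. Median E in the lowest quintile was 0.09 in ELA and −0.01 in NPC, and in the highest −0.03 and 0.19, so that the order of the quintiles was reversed between the stages. The GC content of the probe itself had a rho of only 0.08, distance of the probe from the 3′ end −0.10, mean signal −0.06, transcript length 0.16 and 3′ UTR length −0.01. Probes in 3′ UTRs and in coding sequence had median ΔE of 0.09 and 0.02. The total RNA change went with the same feature, with a rho of −0.11, and its part was not tested.

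**Figure D5:**
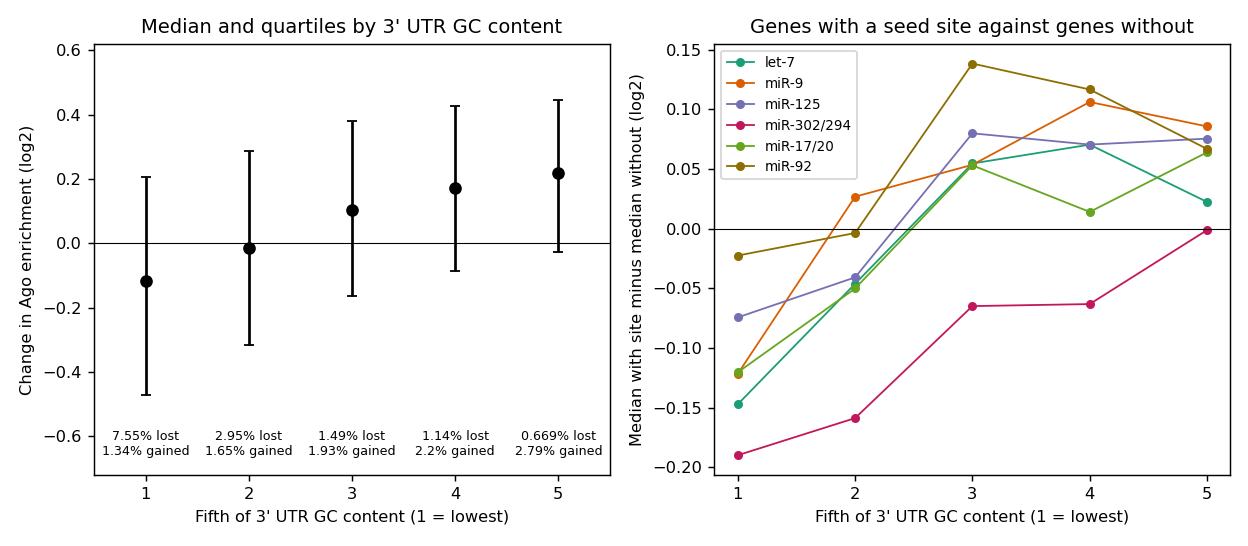
Left, median and quartiles of the change in Ago enrichment (log2) by quintile of 3′ UTR GC content, with the percentage of genes that lost or gained 2-fold or more. Right, difference of the median change between genes with and without a seed site of each miRNA family, within the same quintiles. The median rises from −0.12 to 0.22 on the left, and on the right the line of miR-302 and miR-294 lies below 0 in all 5 quintiles.

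Seed sites were searched as 7 letters on the transcript strand of the 3′ UTR, CTACCTC for let-7, ACCAAAG for miR-9, CTCAGGG for miR-125, AGCACTT for miR-302 and miR-294, GCACTTT for miR-17/20 and GTGCAAT for miR-92. They occur in 8.19%, 10.9%, 12.03%, 12.9%, 10.71% and 5.79% of all 19915 annotated 3′ UTRs, and the letters of the miR-302 and miR-294 site and of the miR-17/20 site overlap by 6 bases in AGCACTTT. The 1958 measured genes with a miR-302 and miR-294 site had a median ΔE of −0.01, against 0.10 for genes without, a difference of −0.10. Their median E was 0.26 in ELA and 0.23 in NPC, while that of genes without rose from −0.03 to 0.10. The median total RNA change was 0.09 with the site and −0.05 without. Median Ago–RNA changes were 0.024 and 0.0009, so Ago–RNA of genes with the site did not fall as a group. The part of total RNA in the difference was not tested. Of genes with the site 5.62% lost 2-fold or more, against 2.24% of those without. With 2 or more sites (325 genes) the median ΔE was −0.09. Lost shares with and without a site were 4.42% and 2.51% for miR-17/20, 3.90% and 2.68% for miR-92 and 3.52% and 2.65% for miR-9. They were 3.03% and 2.73% for let-7 and 2.75% and 2.76% for miR-125. Median 3′ UTR length was 2255 with the miR-302 and miR-294 site and 857 without, and its part in the lost share was not tested. Within the quintiles of 3′ UTR length the difference in median ΔE for miR-302 and miR-294 lay between −0.22 and −0.08. Within those of GC content, which were added after the data were seen, it was −0.19, −0.16, −0.06, −0.06 and −0.001 from the lowest to the highest. For the other families the overall differences were 0.06 (let-7), 0.04 (miR-9), 0.12 (miR-125), −0.01 (miR-17/20) and 0.03 (miR-92). The larger one of miR-125 had a mean of 0.02 within the GC quintiles, and that of let-7 −0.01. Sites are shared between families, and the medians describe large groups of genes, not single transcripts.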

How the data were processed

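Total RNA and Ago–RNA of E14Tg2A cells were measured on 8 one-color Agilent arrays on 1 slide, with 1 array per condition. The authors deposited the spot intensity that Agilent Feature Extraction wrote (version 10.7.3.1 per the file headers, 9.1 per the labels), as mean, background and processed intensity without normalization between arrays. Probe positions are on mm9. The labels give 50 ng of RNA for labeling. Irregular spots, between 125 and 523 per array, were left out, 0 spots were saturated, and between 53.4% and 61.2% were well above background. The number of arrays limits the precision.

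For background correction limma 3.58.1 (R 4.3.3) ran normexp with an offset of 50 on mean and background intensity. All 8 arrays were brought to a common distribution of log2 values (quantile normalization), and spots of a probe were averaged. Quantile normalization removes any difference in overall RNA recovery. For the binding limit, mclust 6.1.1 split the Ago–RNA signal into 2 components, and 3 SD were added to the mean of the lower. Other values were computed with Python 3.11.15, pandas 2.3.3 and numpy 2.4.6. Gene places and 3′ UTRs were those of GENCODE vM1 on the same build, with the longest coding transcript of a gene. The site of miR-124 was not searched.

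The 37 gene lists were written from textbook knowledge, and members, lists and tests were chosen with earlier results of these data known. Genes are named as the 10 largest gains and losses among genes with a reference symbol and all probes in the same direction, the 6 largest each with total RNA changed by less than 0.5, the 6 largest released and loaded, the extremes of each list with up to 4 more past 2-fold, and members of the epiblast, neural progenitor, Argonaute and let-7 lists; exceptions are named as such. A gene that the rule names is not reported here. Alternatives were other background offsets, the processed intensity with quantile or 75th percentile scaling, quantile normalization by RNA type or over 4 arrays, other filters on dim probes, the brightest probe of a gene, and adjustment for total RNA change or 3′ UTR length and GC content.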

Additional observations from a re-analysis of the deposited data

How the results depend on the processing

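The counts depended on the background step and on the filter more than on the scaling. Probes that gained enrichment numbered 863 with the processed signal and quantile normalization, 760 with its 75th percentile scaling and 1219 without a filter on dim probes, against 460, and probes that lost numbered 1625 without the filter, against 960. The share of gains among all calls was 32.4%, and lay between 32.2% and 42.9% over the alternatives, the highest without the filter. Against 47 released genes, there were 76 and 74 at offsets of 16 and 0, 587 and 300 with the processed signal by quantile and percentile scaling, and 20 when all 4 arrays had to be well above background. Against 16 loaded genes, the processed signal gave 585 and 455 and the stricter filter 6. The slope of Ago–RNA on total RNA lay between 0.83 and 0.95 under all alternatives. Of the list medians, that of epiblast and pluripotency genes went to 0.079 with quantile normalization by RNA type, that of extracellular matrix genes to 0.54 without the filter, that of miR-290 and miR-302 targets to −0.56 with the processed signal, that of the Hox cluster (3 measured genes, 0.53) to as high as 1.07 over the scalings, and that of nuclear and structural RNAs to 0.21 relative to genes of like GC content, a value that rests on 2 genes with a 3′ UTR. Medians of translation initiation factors (0.00) and olfactory receptors (0.04) changed sign under some scalings, and the other 35 kept theirs. Of 2058 values of named genes under alternatives, 125 moved by more than the spot SD and 0 with a change of 2-fold or more turned its direction. The difference for miR-302 and miR-294 sites lay between −0.14 and −0.10. The cause of these shifts was not tested. No paired analysis was possible because each condition has 1 array.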

Other observations

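The probe of 4930520P13Rik, which has no place in the gene models used, had a log2 signal of 19.40 on the NPC total RNA array and between 7.55 and 7.57 on the other 3 arrays of ELA and NPC. Its ΔE of −11.88 was the most extreme of all measured genes and rests on that signal alone. The probe is printed in a single spot, which the scanner software marked neither as saturated nor as irregular. A probe listed under another name, ENSMUST00000107034, was not well above background on the NPC Ago–RNA array and behaved alike. Its signal was 19.47 on the NPC total RNA array and between 6.96 and 8.16 on the others.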
